A study of Mus musculus with 6 samples.

Results

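Acyl-CoA thioesterases are the enzymes that split an activated fatty acid, an acyl-CoA, back into free fatty acid and coenzyme A. Probe sets were taken as theirs when the platform annotation gave them 1 gene symbol and that symbol was Acot1, Acot2, Acot3, Acot4, Acot7, Acot8, Acot9, Acot11, Acot13 or Them4. This gave 14 probe sets for 10 genes, of 45037 probe sets on the array, and a further 2 that the annotation assigns to a member together with another gene were kept apart. The brown samples were interscapular fat and the white samples epididymal fat. They came from C57BL/6 males of 10 to 12 weeks that lived at ambient temperature without treatment, and the labels name no transgene or other manipulation. Fat of both kinds was taken from 3 mice, giving 3 arrays per tissue and 6 in all. The labels do not say which brown and white samples share a mouse. Brown and white samples also differ in depot, so that tissue type and depot cannot be told apart.

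Acyl-CoA synthetases attach coenzyme A to fatty acids, which commits them to oxidation or to synthesis of lipids, and thioesterases reverse that step. Type I thioesterases share an alpha/beta hydrolase fold, and type II enzymes have the unrelated hotdog fold. Members differ in the compartment they work in and in the chain length they prefer, and Acot11, also known as brown fat inducible thioesterase or Them1, was first described as a transcript induced by cold in brown fat.

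The labels were checked on marker genes. Ucp1, the uncoupling protein of brown fat, had signals of 12788 to 13251 in brown and 4.58 to 62.5 in white, the leptin gene Lep had 32.1 to 67.2 and 1731 to 1762, and 9 brown and 7 tested white adipocyte markers were each higher in their own tissue. The columns of the authors' series-wide table run the other way round for the same labels, so every direction given here rests on the array files. Of probe sets on an array, 35.6% to 37.5% were called present in brown and 45.2% to 45.8% in white, and the actin 3′/5′ ratio was 1.36 to 2.24 and 1.19 to 1.73. Markers of other cells also moved with tissue. White was higher for 12 of 12 macrophage genes (summed signal 3129 to 3647 in brown, 20141 to 20832 in white), 8 of 8 mesothelial genes (282 to 323, 3508 to 3667) and 3 of 3 tested lymphocyte genes (299.7 to 381, 5224.5 to 6207, with Cd3e and Cd3g absent on all arrays). It was higher for 4 of 8 endothelial genes and brown for 1 (2451 to 2635, 3117 to 3267), and for 3 of 6 tested nerve and Schwann cell genes and brown for 2 (1726 to 2032, 3720 to 3955, with Tubb3 and Snap25 absent). Of 14 skeletal muscle genes 5 were tested, with brown higher for 2 (1588 to 2121, 781 to 962). Myh1 and Myh4 were called present on brown replicates 1 and 2 only and were not tested. Ckm, Mylpf, Myh2, Tnnt3, Tnni2, Tnnc2 and Actn3 were absent on all arrays. With the deposited scaling the endothelial split was 7 in white and 0 in brown, and the muscle split 1 and 1. Ucp1, Dio2 and Otop1 were called present on brown arrays only. Agt, Tcf21, Itgam, Msln, Slpi, Upk3b, Krt19, Krt8, Krt18, Ighm, Pecam1 and Uchl1 were called present on white arrays only. Each of them entered the test through that tissue alone. The part of these other cell types in the thioesterase differences was not tested.

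Of the 10 genes, 8 had a probe set detected (call present) on 3 or more of the 6 arrays and were tested (limma on quantile-normalised log2 signals, with p-values adjusted by Benjamini-Hochberg over all 19819 tested probe sets and a threshold of 0.05). Signals are intensity units after that normalisation, and differences are brown minus white on the log2 scale. Acot11, Acot13, Acot1, Acot2, Acot8 and Them4 were higher in brown, with fitted log2 differences of 4.86, 2.76, 2.07, 1.20, 0.93 and 0.89. No white array called Acot11 present, so its fold is given as a lower bound. Acot7 and Acot9 did not pass the threshold, and 0 of the tested members were higher in white. Over all 10264 genes tested, 27.7% were higher in brown and 32.2% higher in white, 60.0% in either direction, with a median log2 difference of -0.04. Of the 9 tested member probe sets brown was higher for 7 and white for 0, against 24.6% and 29.9% of all tested probe sets and 54.5% in either direction. The brown and white arrays did not overlap for any of the 8 tested members or their 9 probe sets, as for 67.3% of all genes and 62.4% of all probe sets tested. A called difference of at least 2-fold towards brown was seen for 4 of the 8 members, against 10.9% of all genes, and 14.4% of genes had one towards white. Acot11 passed the detection filter only through its brown arrays, and these counts are descriptions of the members that passed. These are whole tissues, in which fewer cells of a type and less RNA per cell cannot be told apart.

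Scaling of the arrays bears on the size of the differences and on the calls of the smaller ones. Over all probe sets tested, the median log2 difference with quantile normalisation was -0.06, and it was -0.53 both as deposited and when arrays were scaled to their spike-in controls. The split of all calls moved with it, from 4885 probe sets higher in brown and 5924 in white to 2535 and 10785 as deposited and 2295 and 10112 with spike-in scaling. Under both of those scalings 4 members were still called higher in brown, namely Acot11, Acot13, Acot1 and Acot2. The other 4 tested members were then not called. Acot2 had a difference of 0.75 under both, below the 2-fold that it reached with quantile normalisation.

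**Figure D1:**
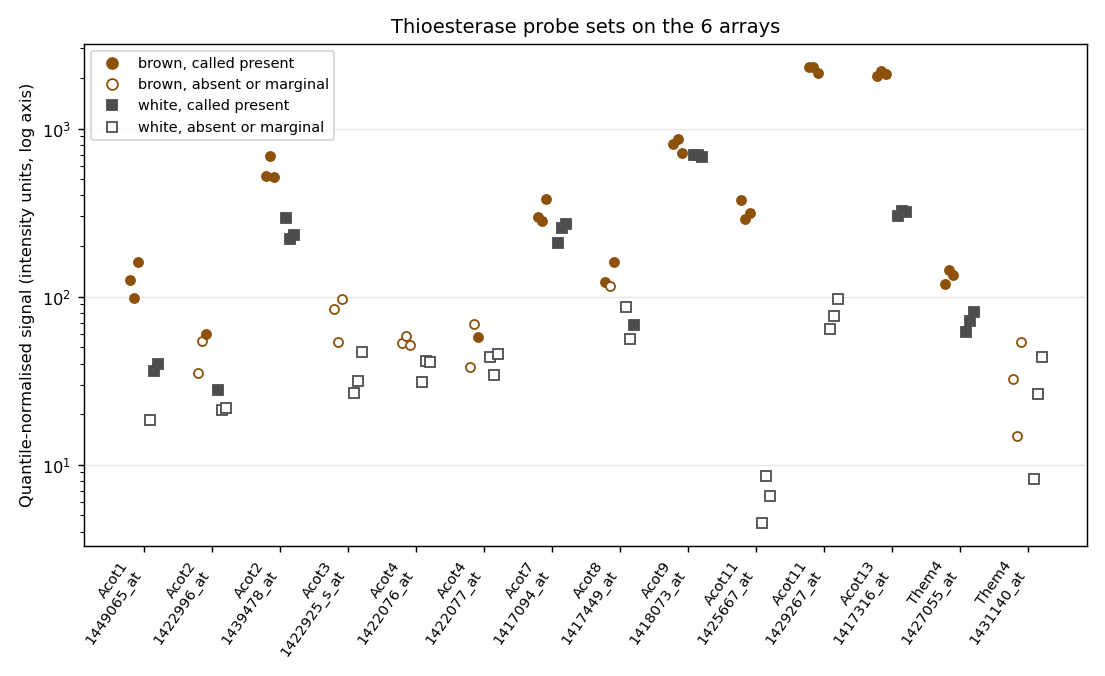
Quantile-normalised signal (intensity units, log axis) of each of the 14 member probe sets on the 3 brown arrays (circles) and 3 white arrays (squares), with filled symbols where the array called the probe set present. Acot11 and Acot13 stand well apart between the tissues, Acot9 lies between 679 and 867 in both, and the probe sets of Acot3 and Acot4 have open symbols on nearly all arrays.

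The sequences just before the start of transcription of Acot11, Acot1 and Acot2 are shown because these genes were called higher in brown under each scaling of the array files, as was Acot13, whose sequence was not analysed here. They are the 250 bases before the RefSeq start in build GRCm38.p6, 5′ to 3′ on the strand of the gene. Capitals mark a CCAAT box (CCAAT) or a GC box (GGGCGG), read on either strand. Acot11 has 2 annotated starts. The upstream window is chr4:106805008-106805257, minus strand, and the downstream window is chr4:106799832-106800081, minus strand. The Acot1 window is chr12:84009252-84009501, plus strand, and the Acot2 window is chr12:83987611-83987860, plus strand.
Acot11, upstream start: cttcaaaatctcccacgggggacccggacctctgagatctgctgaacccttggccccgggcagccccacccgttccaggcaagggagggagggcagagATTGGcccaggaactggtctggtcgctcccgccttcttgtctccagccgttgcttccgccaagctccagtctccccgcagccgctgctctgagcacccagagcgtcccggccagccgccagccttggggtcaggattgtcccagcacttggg
Acot11, downstream start: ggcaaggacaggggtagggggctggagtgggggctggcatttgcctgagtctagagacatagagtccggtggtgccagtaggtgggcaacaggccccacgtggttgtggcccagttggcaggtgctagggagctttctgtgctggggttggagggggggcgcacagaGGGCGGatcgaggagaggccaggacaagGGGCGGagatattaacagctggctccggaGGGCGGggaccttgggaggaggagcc
Acot1: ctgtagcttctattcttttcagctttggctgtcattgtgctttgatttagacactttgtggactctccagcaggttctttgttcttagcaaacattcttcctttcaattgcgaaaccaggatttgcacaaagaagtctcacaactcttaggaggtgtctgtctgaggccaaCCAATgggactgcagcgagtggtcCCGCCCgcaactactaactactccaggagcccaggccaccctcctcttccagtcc
Acot2: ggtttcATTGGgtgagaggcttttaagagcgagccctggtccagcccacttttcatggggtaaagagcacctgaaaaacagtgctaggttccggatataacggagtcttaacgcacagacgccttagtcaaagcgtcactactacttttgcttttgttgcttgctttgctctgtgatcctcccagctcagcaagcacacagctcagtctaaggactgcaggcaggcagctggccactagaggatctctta

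The window at the downstream Acot11 start held 3 GC boxes and 0 CCAAT boxes, while the upstream one held 1 CCAAT box and 0 GC boxes. The Acot1 window held 1 of each, and Acot2 had 1 CCAAT box. The Acot11 windows were 66.4% and 65.2% G and C, against 48.8% for Acot1 and 50.4% for Acot2. Of 32817 promoter windows of the same length, 33.8% held CCAAT and 32.7% held GGGCGG. The nuclear receptor half-site AGGTCA, present in 14.0% of all windows, was found in the Acot4 window and in none of the others among 11 windows of 9 members. No match in a member window was found for TCAAGGTCA (0.387% of all windows), TGACGTCA (1.55%) or the direct repeat of the half-site with 1 base between (0.0823%), each searched on both strands, and TATAAA (12.4%) was found in those of Acot4 and Acot9. These are matches of letters in a short window, and AGGTCA lies inside TCAAGGTCA and the direct repeat.

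The type I genes lie side by side. In the RefSeq table Acot2, Acot1, Acot4, Acot3, Acot5 and Acot6 are consecutive protein-coding genes on chromosome 12, and the annotation assigns 1 probe set to Acot1 and Acot2 together. Acot1, the cytosolic enzyme for long-chain acyl-CoA, had signals of 125, 98.0 and 161 on the brown arrays and 18.4, 36.2 and 39.8 on the white arrays. Every brown array lay above every white array, and white replicate 1, the lowest, was called absent. The log2 difference was 2.07 (SE 0.32; limma adjusted p = 0.000365), a 4.20-fold ratio of geometric means. With the deposited scaling it was 1.57, and with 64 signal units added 1.0.

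Acot2, the enzyme of the mitochondrial matrix that acts on long-chain acyl-CoA, had signals of 524, 683 and 512 in brown and 293, 221 and 231 in white. All 6 arrays called this probe set present, and the tissues did not overlap. The log2 difference was 1.20 (SE 0.15; limma adjusted p = 6.38e-05), or 0.75 with the deposited scaling. A second Acot2 probe set was called present on 1 brown and 1 white array and was not tested. Its signals were 35.1, 54.6 and 60.2 in brown and 28.0, 21.1 and 21.8 in white.

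The probe set that the annotation assigns to both Acot1 and Acot2 was present on all arrays, at 189, 204 and 219 in brown and 43.8, 90.9 and 90.3 in white. It was higher in brown by 1.52 (SE 0.26; limma adjusted p = 0.000795), which lies between the differences of the separate probe sets, and it cannot be divided between the genes. Whether Acot1 and Acot2 differed unequally was asked of the log2 ratio of Acot2 over Acot1 within each array. This ratio averaged 2.18 ± 0.57 (SD, n = 3) in brown against 3.05 ± 0.82 (SD, n = 3) in white, a difference of -0.87 (two-sided exact permutation p = 0.3, where 0.1 is the smallest possible). Without white replicate 1 the difference was -0.40, and with 64 signal units added it was 0.023.

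Acot3 and Acot4, peroxisomal enzymes of the cluster, were near background in both tissues and were not tested. All 6 arrays called the Acot3 probe set absent, with signals from 54.0 to 96.3 in brown and from 26.6 to 46.6 in white. The suffix of its name (_s_at) marks probes that can match more than 1 transcript. The Acot4 probe sets ranged from 37.98 to 68.5 in brown and from 30.9 to 45.8 in white, and only 1 of their 12 readings, on brown replicate 3, was called present. No fold is given for either gene.

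Acot11 showed the widest tissue difference of the tested members. Its enzyme pairs hotdog thioesterase domains with a lipid-binding START domain. The brighter probe set had signals of 2316, 2332 and 2154 in brown and 64.2, 76.9 and 96.9 in white. On the white arrays it was called absent on replicates 1 and 2 and marginal on replicate 3. On these arrays the ratio of geometric means was therefore at least 29.0-fold towards brown. The fitted log2 difference was 4.86 (SE 0.14; limma adjusted p = 3.53e-09).

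The other Acot11 probe set had signals of 376, 291 and 315 in brown and 4.48, 8.56 and 6.48 in white. It was called present on all brown arrays and absent on all white arrays. With quantile normalisation its level was at least 48.4-fold higher in brown. The fitted log2 difference was 5.70 (SE 0.29; limma adjusted p = 1.24e-07), or 5.27 with the deposited or spike-in scaling. In both bounds each white array enters at the lowest signal it called present, or at the probe set's own signal if that is higher. These bounds, and those of other genes below, hold for quantile-normalised signals only. With 64 signal units added, the fitted log2 difference of this dimmer probe set fell from 5.70 to 2.47. Both Acot11 probe sets passed the detection filter only through brown.

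Acot13, also called Them2, is a small hotdog enzyme found at mitochondria and in the cytosol, and it binds the phosphatidylcholine transfer protein Pctp. Its signals were 2070, 2197 and 2122 in brown and 304, 321 and 320 in white. The arrays within each tissue were close together, and every array called the probe set present. The log2 difference was 2.76 (SE 0.07; limma adjusted p = 1.53e-09), a 6.76-fold ratio. Its partner Pctp was also higher in brown, at 96.0 ± 23.9 against 30.8 ± 6.89 (SD, n = 3; log2 difference 1.63, limma adjusted p = 0.000667).

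Acot8, a peroxisomal thioesterase of broad chain-length range, had signals of 122, 116 and 160 in brown and 86.5, 55.9 and 67.6 in white. It was called present on brown replicates 1 and 3 and white replicate 3 only, which is the least that entered the test. The log2 difference of 0.93 (SE 0.21; limma adjusted p = 0.00388) fell to 0.40 with the deposited scaling, where it was not called (limma adjusted p = 0.127). Them4, a mitochondrial thioesterase also known as a partner of the kinase Akt, had 118, 143 and 135 in brown and 61.6, 71.8 and 80.6 in white. The tissues did not overlap, and its log2 difference was 0.89 (SE 0.17; limma adjusted p = 0.00145). With the deposited scaling this became 0.37 (limma adjusted p = 0.0943). A second Them4 probe set was absent on all arrays, between 14.9 and 53.6 in brown and 8.25 and 43.8 in white.

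Acot7 and Acot9 were the tested members without a call. Acot7, the cytosolic enzyme best known from brain, had signals of 298, 282 and 380 in brown and 208, 256 and 272 in white. The arrays did not overlap, but the log2 difference of 0.38 (95% interval 0.05 to 0.71) missed the threshold (limma adjusted p = 0.0528), and with the deposited scaling it was -0.12. Without brown replicate 2 the adjusted p was 0.0317, and without white replicate 3 it was 0.0486. Over the alternatives run on the array files it ranged from 0.0317 to 0.528, and in 7 of them Acot7 was called higher in brown.

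Acot9, a mitochondrial hotdog enzyme, had signals of 811, 867 and 713 in brown and 695, 699 and 679 in white. Its log2 difference was 0.20 (95% interval 0.01 to 0.40; limma adjusted p = 0.0749), and -0.18 with the deposited scaling. Without brown replicate 3 it was 0.28 (limma adjusted p = 0.0215), and over the alternatives run on the array files the adjusted p ranged from 0.0215 to 0.290. The probe set assigned to both Acot9 and Acot10 gave 474, 483 and 515 in brown and 430, 451 and 448 in white, a difference of 0.15 (limma adjusted p = 0.163).

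**Figure D2:**
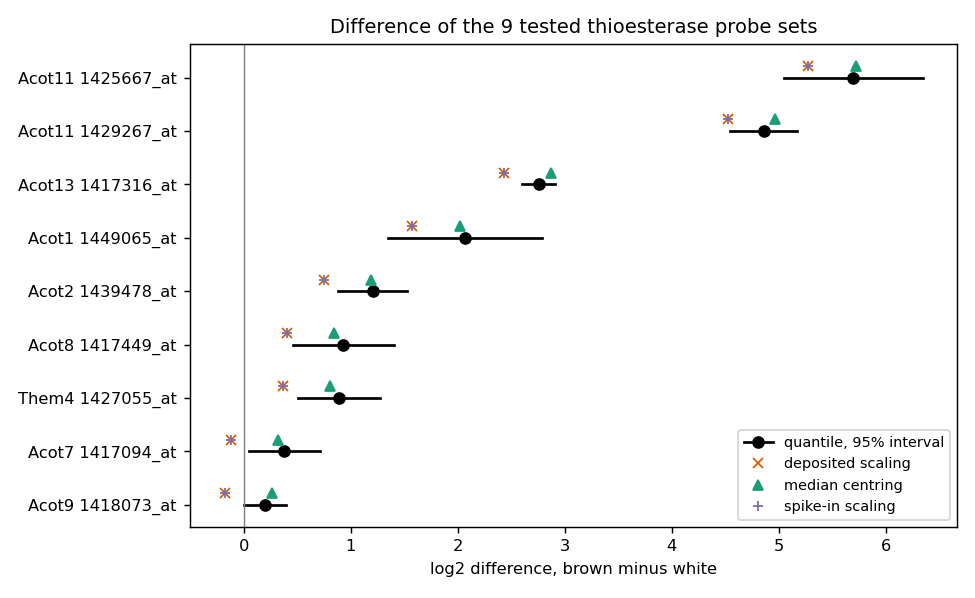
Log2 difference, brown minus white, of the 9 tested member probe sets, with the 95% interval of the quantile-normalised value (black) and the values under 3 other scalings. The Acot11, Acot13, Acot1 and Acot2 probe sets lie to the right of 0 under each scaling shown, while Acot7 and Acot9 cross to -0.12 and -0.18 with the deposited scaling.

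Ordered by difference, the tested members ran from Acot11 through Acot13, Acot1, Acot2, Acot8, Them4 and Acot7 to Acot9. The 95% interval of the brighter Acot11 probe set (4.54 to 5.17) lay apart from that of Acot13 (2.60 to 2.91). The intervals of Acot13 and Acot1 (1.35 to 2.79) overlapped, as did those of Acot1 and Acot2 (0.88 to 1.53). Acot2, Acot8 (0.46 to 1.40) and Them4 (0.51 to 1.28) also overlapped, as did Them4 and Acot7, and Acot7 and Acot9. Overlap of intervals is not a test of the order, and of these neighbours only Acot1 and Acot2 were compared directly. The type II members spanned the whole range of fitted differences, from 0.20 to 4.86, and the 2 tested type I members fell inside it.

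Brown adipocytes are known for their many mitochondria. The members were also set against 10 mitochondrial genes on the same array, a measure chosen after the values had been seen. All 10 of those genes were higher in brown (9 with the deposited or spike-in scaling), with a median difference of 0.95, among them the respiratory subunits Uqcrc1 (1.80) and Sdha (1.18), the import receptor Tomm70a (1.13), the chaperone Hspd1 (0.99) and citrate synthase, Cs (0.91). The log2 ratio of Acot11 to their mean was higher in brown by 3.92 as fitted, that of Acot13 by 1.82 and that of Acot1 by 1.13, with no overlap between tissues. The ratios of Acot9 (-0.73) and Acot7 (-0.56) were lower in brown without overlap. Those of Acot2 (0.27), Acot8 (-0.00427) and Them4 (-0.04) overlapped between tissues. Under scaling of whole arrays Acot1 overlapped too (0.67), Acot2 turned to -0.15, Acot8 was at -0.50 with overlap and Them4 was lower in brown without overlap (-0.54). Each non-overlapping ratio had a two-sided exact permutation p = 0.1, the smallest possible with 3 arrays per tissue, and 0.16 after Benjamini-Hochberg adjustment over the 8 members.

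**Figure D3:**
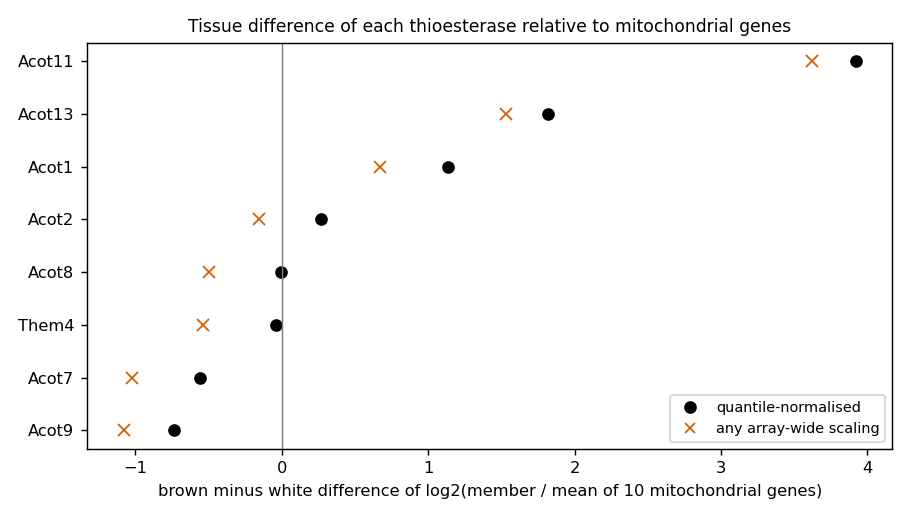
Difference between tissues (brown minus white) of the log2 ratio of each tested member to the mean of 10 mitochondrial genes on the same array, after quantile normalisation (circles) and under scaling of whole arrays (crosses). Acot11, Acot13 and Acot1 lie above 0 and Acot7 and Acot9 below it with both, and Acot2 changes side.

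The list of other thioesterases held 14 genes, of which 7 were tested. Brown was higher for 4 of them and white for 0, with a median of 0.42 beside 1.07 for the 8 tested members. Called genes were Hibch, the hydrolase of valine breakdown (1.04), the protein deacylases Lypla1 (0.78) and Lypla2 (0.29), and fatty acid synthase, Fasn (0.53), whose own thioesterase domain releases palmitate. The lysosomal thioesterases Ppt2 (0.42, limma adjusted p = 0.0503) and Ppt1 (-0.10) were not called. Acot6, the last gene of the chromosome 12 cluster and chosen after its values were seen, had 99.4 ± 3.21 in brown against 130 ± 23.4 in white (SD, n = 3; limma adjusted p = 0.0954), and Acot5 was absent on all arrays. With the deposited or spike-in scaling, brown was higher for 3 of these genes and white for 2, and with median centring for 5 and 1.

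Nudix enzymes, listed as acyl-CoA diphosphatases, were higher in brown in 4 of 4 cases. Nudt7, Nudt8 and Nudt19 cut the coenzyme A part of an acyl-CoA, whereas Nudt12 is known for cutting NADH. The differences were 1.76 for Nudt8, 1.32 for Nudt7, 0.79 for Nudt12 and 0.63 for Nudt19. Their median, Nudt12 included, was 1.06. With the deposited scaling 3 of them were called, and with spike-in scaling 2.

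Genes of the opposite reaction, the acyl-CoA synthetases, went both ways. Of 13 tested, brown was higher for 8 and white for 3 (median 1.71), against 8 and 5 with the deposited scaling. Higher in brown were the very-long-chain synthetase Slc27a2 (at least 183-fold), the mitochondrial acetyl-CoA synthetase Acss1 (4.13), Acsf2 (at least 7.01-fold), the medium-chain enzyme Acsm3 (2.77) and Acsf3 (2.59), which acts on malonate. The long-chain synthetase Acsl5 also was, at 2903 ± 216 against 547 ± 30.4 (SD, n = 3; log2 difference 2.41). Acsm5 (at least 3.69-fold), Slc27a1 (-0.70) and Acsl4 (-0.49) were higher in white. Aacs (-0.04) and Slc27a4 (0.05) were not called, and Acsl1 was not analysed here.

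**Figure D4:**
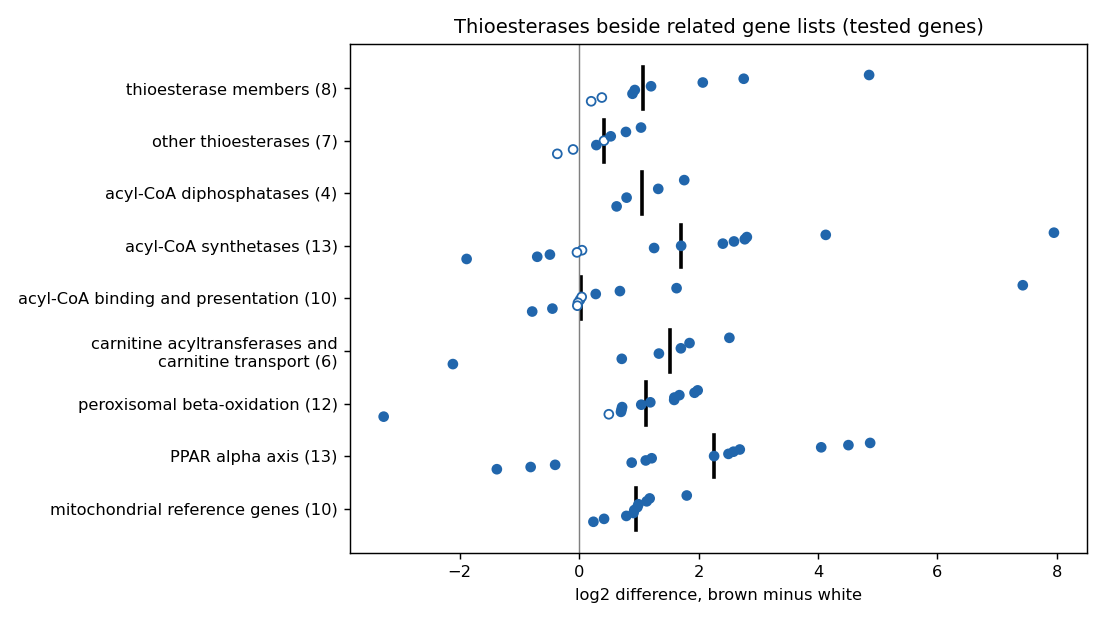
Log2 difference, brown minus white, of each tested gene in the thioesterase family and in 8 related lists (number tested in parentheses), filled where the adjusted p passed 0.05, with the median of each list as a bar. Points of genes that no array of 1 tissue called present are fitted values, not bounds. With quantile normalisation, as shown, all 8 tested thioesterase members lie to the right of 0, and the synthetases lie on both sides of it. The acyl-CoA diphosphatases and mitochondrial reference genes also all lie to the right. With the deposited scaling Acot7 was at -0.12 and Acot9 at -0.18.

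For genes that bind or present acyl-CoA and fatty acids, 10 were tested. Brown was higher for 4, white for 2, and 4 missed the threshold (median 0.03). With the deposited scaling the split was 2 and 4, and with median centring 6 and 1. Fabp3, a fatty acid binding protein of muscle, had the largest difference of these (7.43), followed by Pctp, Acbd6 (0.68) and Acbd4 (0.28), and Fabp5 (-0.79) and Scp2 (-0.45) were higher in white. Dbi, the main acyl-CoA binding protein, did not pass the test (0.01, limma adjusted p = 0.791), nor did Fabp4 (-0.03). Both had very high signals (10853 to 11339 and 13642 to 14151). Several arrays of both tissues held the same normalised value there, so a small difference could go unseen. In the carnitine list brown was higher for 5 of 6 tested genes and white for 1 (median 1.52), or 4 and 1 with the deposited scaling. Slc25a20, the mitochondrial acylcarnitine carrier (2.52), Cpt2 (1.85), Crat (1.70), Slc22a5 (1.34) and the peroxisomal Crot (0.71) were higher in brown, and Cpt1a, the acyltransferase of the outer mitochondrial membrane, was higher in white (-2.12). The probe set of Cpt1b is assigned to several genes, and no value is given for it.

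Acot8 acts on acyl-CoA products of peroxisomal beta-oxidation. Genes listed for that pathway were higher in brown in 10 of 12 cases and in white in 1, with a median of 1.12, or 9 and 1 with the deposited scaling. The list also holds transporters and the alpha-oxidation enzymes Phyh and Hacl1. Amacr (1.98), the transporter Abcd3 (1.93), Decr2 (1.68), Ehhadh (1.59) and Phyh (1.59) were higher in brown, Abcd2 was higher in white (-3.27) and Acox3 was not called (0.50). Type I thioesterases are known targets of the fatty acid receptor PPAR alpha in liver. In the list of that receptor, its partners and targets, brown was higher for 10 of 13 tested genes and white for 3 (median 2.26), or 9 and 3 with the deposited scaling. Ppara itself (fitted difference 4.87, with no white array calling it present), Pdk4 (4.51), Plin5 (4.05), Acadl (2.69) and Ppargc1b (2.59) were higher in brown, and Rxra (-1.38), Vnn1 (-0.81) and Angptl4 (-0.40) were higher in white.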

How the data were processed

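Each sample was hybridised to 1 Affymetrix mouse 430_2 array. Per the file headers, the deposited array files hold a signal intensity (linear), a detection call and a detection p-value per probe set. No software or scaling is named in the labels or headers. The authors' series-wide intensity table (column medians 62.9 to 64.3 in brown, 55.9 to 56.8 in white, linear, centring unknown) correlated more with array files of the other tissue label (r = 0.891 to 0.933) than of the same (0.762 to 0.786). The array files were used, since Ucp1 and Lep run there in their known directions.

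After 64 control probe sets were dropped, log2 signals (the 1 signal of 0 set to 0.1) were quantile-normalised because trimmed means (2%) differed by over 10% between arrays. The test was limma 3.58.1 under R 4.3.3 (eBayes with trend, two-sided), checked on simulated data. The tested probe set of highest mean signal represents a gene. Tissue means and SDs are of linear signals, 3 arrays each, and this number limits precision. P-values measure the spread between samples. Members and lists were chosen with earlier results of these data known. Beside the members, the text names from each list up to 5 called genes of largest difference in its main direction, 3 in the other and 2 uncalled of highest signal, and always Ppara, Fasn, Acsl5, Dbi, Pctp, Cpt1a, Cs, Ucp1 and Lep. Symbols are those of the platform annotation. Promoters are from RefSeq GRCm38.p6 (9 of 10 members matched). Replicate numbers are not stated to mark a mouse, so they were not used as a block in the main test. Alternatives covered scaling, an offset, detection filters, probe set rules, moderation, the replicate block, the series-wide table and each array left out.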

Additional observations from a re-analysis of the deposited data

How the results depend on the processing

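Acot11, Acot13, Acot1 and Acot2 kept their direction and call under each alternative run on the array files in which they were tested. Their differences ranged from 4.03 to 5.28, 2.43 to 2.87, 1.0 to 2.28 and 0.75 to 1.33. That of the dimmer Acot11 probe set ranged from 2.47, with 64 signal units added, to 5.92. On the array files, Acot8 and Them4 lost their call with the deposited (0.40 and 0.37) and spike-in scaling (0.40 and 0.37) and kept it in the other alternatives in which they were tested. Acot7 turned to -0.12 and Acot9 to -0.18 with both of those scalings. Acot7 was called higher in brown in 7 alternatives on the array files and Acot9 in 2, median centring (0.27) and leaving out brown replicate 3. Among probe sets present on all 6 arrays, 4 member probe sets were higher in brown instead of 7. Those of Acot1, Acot8 and Acot11, 4 in all, no longer entered the test, and Acot7 was newly called (limma adjusted p = 0.0415). Leaving out each array gave 6 to 7 member genes and 7 to 8 member probe sets higher in brown and 0 in white. Without the detection filter Acot3, absent on every array, passed the threshold towards brown (limma adjusted p = 0.0272) and Acot4 did not. In the series-wide table, columns as labelled, 0 member genes and 0 member probe sets were higher in brown, and 7 genes and 8 probe sets were higher in white. The differences there were -6.05 and -4.22 for Acot11, -2.85 for Acot13, -2.74 for Acot1, -1.40 for Acot2, -0.64 for Acot7, -0.59 for Them4, -0.39 for Acot9 and -0.18 for Acot8. The unequal difference of Acot1 and Acot2 turned to 0.023 with 64 signal units added, and ranged from -1.18 to -0.40 when single arrays were left out. Deviations of same-numbered brown and white arrays from their tissue means correlated at 0.02, -0.01 and -0.05. Those of differently numbered arrays correlated at -0.05 to 0.07, so these values cannot show which arrays share a mouse. With the replicate number as a block 7 member genes and 8 member probe sets were higher in brown, Acot7 being added (limma adjusted p = 0.0335).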
